A study of Mus musculus with 8 samples.

Results

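The heart's messenger RNAs for making and using nicotinamide adenine dinucleotide (NAD) were examined through 10 genes: Nmrk1, Nmrk2, Nampt, Nmnat1, Nmnat3, Nadsyn1, Nnmt, Cd38, Sirt3 and Nnt. The genes were listed by symbol, out of 50599 records in each library, and all 10 were found. The list was drawn up with the difference between knockout and wildtype hearts already known, so that difference is given for these genes as a description. No p-value is printed for them, and their calls are only counted beside those of all genes. The libraries came from whole hearts of male C57BL/6N mice aged 12 weeks. 4 hearts were labelled Lrpprc knockout and 4 wildtype, with 1 heart a library, and total RNA was sequenced. All 8 animals carried Lrpprc alleles flanked by loxP sites, and only the knockouts carried the Cre recombinase that removes the gene in heart and skeletal muscle. The promoter that drives Cre is not given in the sources used here. Which cells of the heart keep the gene is not given there either. LRPPRC is a mitochondrial RNA-binding protein.

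NAD carries electrons in metabolism and is consumed by enzymes that cut it and release nicotinamide. Nicotinamide is recycled to nicotinamide mononucleotide by NAMPT, and the same mononucleotide is made from nicotinamide riboside by the riboside kinases encoded by Nmrk1 and Nmrk2. NMNAT enzymes then turn the mononucleotide into NAD. Nmrk2 is known as the muscle-enriched kinase, whereas Nmrk1 is expressed widely.

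RefSeq gave promoter windows for 8 of the 10 genes (GRCm38.p6, 250 bases before to 50 after each start, 10 windows), with none matched for Nnmt and Nnt. The sequences upstream of Nmrk2, Nmrk1 and Nampt are shown because the values below contrast these 3 genes. They are printed 5′ to 3′ on the strand of each gene, without bases of annotated exons of that gene, for Nmrk2 at chr10:81202052-81202287 on the minus strand, for Nmrk1 at chr19:18631766-18631949 on the plus strand and for Nampt at chr12:32820085-32820334 on the plus strand, and capitals mark a TATAAA match. The Nampt stretch ends at the RefSeq start and lies within the gene as GENCODE bounds it, in the first intron of a transcript that starts further upstream.
Nmrk2: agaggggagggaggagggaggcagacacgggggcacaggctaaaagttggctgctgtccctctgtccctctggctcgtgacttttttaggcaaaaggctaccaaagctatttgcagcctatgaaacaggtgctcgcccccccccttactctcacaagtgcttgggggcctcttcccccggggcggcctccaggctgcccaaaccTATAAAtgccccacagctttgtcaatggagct
Nmrk1: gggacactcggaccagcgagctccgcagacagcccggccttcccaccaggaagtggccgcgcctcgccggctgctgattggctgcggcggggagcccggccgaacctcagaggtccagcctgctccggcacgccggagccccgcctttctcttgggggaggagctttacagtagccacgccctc
Nampt: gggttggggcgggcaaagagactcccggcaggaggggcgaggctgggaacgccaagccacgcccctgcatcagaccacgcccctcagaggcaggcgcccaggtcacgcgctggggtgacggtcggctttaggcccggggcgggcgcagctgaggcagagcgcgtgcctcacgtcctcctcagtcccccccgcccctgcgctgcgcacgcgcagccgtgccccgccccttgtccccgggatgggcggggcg
The TATAAA of Nmrk2, a TATA box letter string chosen after the sequence had been read, began 46 bases before the RefSeq start, and 13.6% of 32851 RefSeq promoter windows held it on either strand. The GENCODE start of Nmrk2, just before which the printed stretch ends, lies upstream of the RefSeq start and thus nearer to the string. Neither Nmrk1 nor Nampt had TATAAA in its window. The G and C content of the printed stretch was 58.5% for Nmrk2, 71.2% for Nmrk1 and 75.6% for Nampt. Of 4 other strings searched on both strands, TGATGNAA (the core of an ATF4 composite element, in 3.97% of all windows), CACGTG (an E-box, 7.15%) and TGACGTCA (a cAMP response element, 1.79%) matched no window of the 8 genes. AAGGTCA (a nuclear receptor half-site, 4.72%) matched only that of Nmnat3. No match overlapped another, and a match or its absence says nothing about binding.

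The libraries held 35218541 to 47743376 assigned reads. Lrpprc had 3424 to 3946 normalised counts in the wildtype and 504.3 to 605.4 in the knockout, a log2 fold change of -2.67 (SE 0.1, DESeq2, adjusted p = 3.77e-153), in the direction of the labels. Markers of cardiomyocytes were abundant in every heart, with summed counts of 924099 to 1055858 in the wildtype and 466690 to 616815 in the knockout, and 6 of 8 were lower. Of 7 fibroblast markers 4 were higher, and of 7 macrophage markers 6 were higher. Knockout replicate 3 lay below the other knockouts in its fibroblast sum, 19171 against 32958 to 64147, where the wildtype had 18172 to 18946. It did so too in its atrial sum, 1268 against 3233 to 6012, where the wildtype had 9980 to 12038. Its macrophage sum of 3669 was close to that of knockout replicate 1, 4029, with up to 8003 in the other knockouts and 2917 to 3751 in the wildtype. Without this heart 7 cardiomyocyte markers were lower, and 5 fibroblast and 7 macrophage markers were higher. Leaving it out also gave 2 of 6 endothelial markers higher, where none was called with it, and 3 of 4 atrial markers lower, where 2 were with it. For several of the genes it moved, the value without it is given.

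Nmrk2 (ENSMUSG00000004939.7, chr10:81198170-81202051, minus strand) had 85.8, 100.7, 81.6 and 73.1 normalised counts in the wildtype, in order of replicate number. In the knockout, in the same order, it had 14202, 6720, 1128 and 7540. All knockout hearts lay above all wildtype hearts, and knockout replicate 3 lay closest to them. The log2 fold change was 6.44 (SE 0.659), 6.80 without knockout replicate 3 and 5.91 without knockout replicate 1, the highest library. In whole-heart RNA, fewer cells of a type and less RNA per cell cannot be told apart. Nmrk2 is also a gene of skeletal muscle, whose 8 markers gave 1 gene higher and 2 lower. Their sum of 330.4 to 459.7 counts in the wildtype and 60.44 to 115.4 in the knockout was mostly Mybpc2, and 5 of the 8 were at 10 counts or fewer in every library. Without Mybpc2 the sums were 20.81 to 33.94 in the wildtype and 11.54 to 49.23 in the knockout. Tnnt3 was the marker called higher, from a mean of 2.852 to one of 18.63 (log2 fold change 2.71, DESeq2, adjusted p = 0.00188). The part of skeletal muscle RNA in the Nmrk2 result was not tested.

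Atcayos (ENSMUSG00000085779.1, chr10:81194609-81210877, plus strand), an antisense transcript singled out here because it overlaps Nmrk2 and after its values were seen, shares 270 of the 1854 exonic bases of Nmrk2, on the opposite strand. The study counted reads by strand. Atcayos had 1051, 1049, 985 and 964.9 normalised counts in the 4 wildtype hearts, and 72.88, 162.4, 2056 and 196.5 in knockout replicates 1 to 4. The 3 knockouts with the highest Nmrk2 were thus the hearts with the lowest Atcayos, and knockout replicate 3, with the lowest Nmrk2 of the knockouts, had the highest Atcayos of all 8. Over all hearts the log2 fold change of Atcayos was -0.70 (SE 0.999), and DESeq2 gave no adjusted p. Without knockout replicate 3 it was -2.81 (SE 0.232, DESeq2, adjusted p = 6.46e-32). That p-value rests on leaving out the only knockout heart that did not fall, after its count was seen. Whether the transcripts are linked was not tested.

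Nmrk1 (ENSMUSG00000037847.13, chr19:18631950-18652428, plus strand), the other riboside kinase gene, had 100, 91.95, 138.1 and 105.8 normalised counts in the wildtype. It had 94.36, 125.5, 119.2 and 119.4 in the knockout, and the groups overlapped throughout. Its log2 fold change was 0.07 (SE 0.198). The very different values of the kinases were thus found within the same libraries.

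Nampt (ENSMUSG00000020572.8, chr12:32819545-32853349, plus strand), which encodes the rate-limiting enzyme of nicotinamide recycling, had 3286, 2985, 3201 and 3197 normalised counts in the wildtype. In knockout replicates 1 to 4 it had 2175, 2361, 3060 and 2140. 3 of the knockout hearts lay below every wildtype heart, and replicate 3 lay within the wildtype range. The log2 fold change was -0.38 (SE 0.131), or -0.51 without that library.

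**Figure D1:**
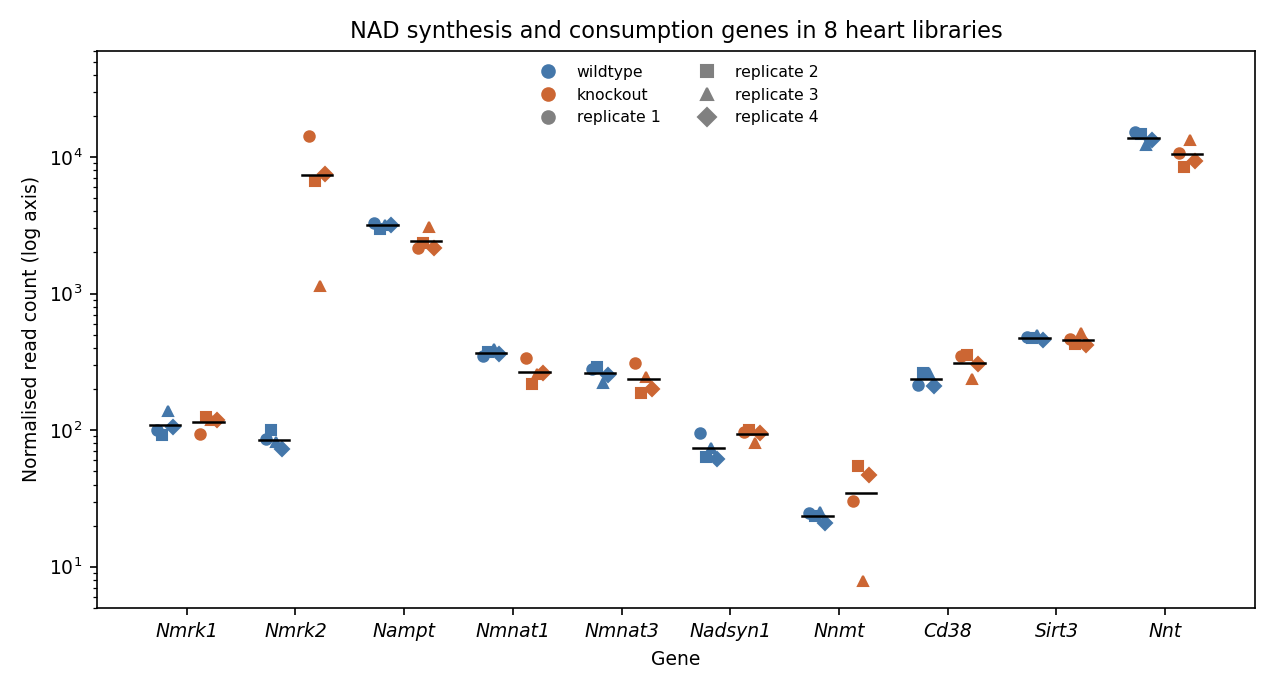
Normalised read counts on a log axis for the 10 genes, with 4 wildtype (blue) and 4 knockout (orange) hearts a gene, marker shape for the replicate number and a bar for the mean of each group. Nmrk2 had 73.1 to 100.7 counts in the wildtype and 1128 to 14202 in the knockout, while the groups of the other 9 genes lay close together, with Nnmt low in knockout replicate 3 at 7.818.

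To compare the riboside kinase route with the Nampt route, the TPM values were used, which are transcript abundances corrected for length. Nampt had 22.53, 20.27, 21.64 and 20.97 TPM in the wildtype, and Nmrk1 plus Nmrk2 had 3.39, 3.44, 4 and 3.14. In the knockout Nampt had 12.84, 15, 17.38 and 14.25 TPM and the kinases had 205, 106, 17.5 and 124. The kinase messages were therefore below Nampt in each wildtype heart and above it in each knockout heart, although in replicate 3 they were nearly level.

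As a share of the kinase and Nampt TPM together, the kinases made up 13.1%, 14.5%, 15.6% and 13% in the wildtype, a mean of 14.1% ± 1.24 (SD, n = 4). They made up 94.1%, 87.6%, 50.1% and 89.7% in the knockout, a mean of 80.4% ± 20.3 (SD, n = 4). The difference of 66.3 percentage points became 76.4 without knockout replicate 3. Nmrk2 alone stood at 0.0553 to 0.0819 of the Nampt TPM in the wildtype and at 15.8, 6.9, 0.895 and 8.54 times it in knockout replicates 1 to 4. In replicate 3 Nmrk2 thus remained below Nampt. The make-up of the kinase messages also differed, and Nmrk2 was 33.5% to 48.3% of the kinase TPM in the wildtype and 89.0% to 99.2% in the knockout.

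**Figure D2:**
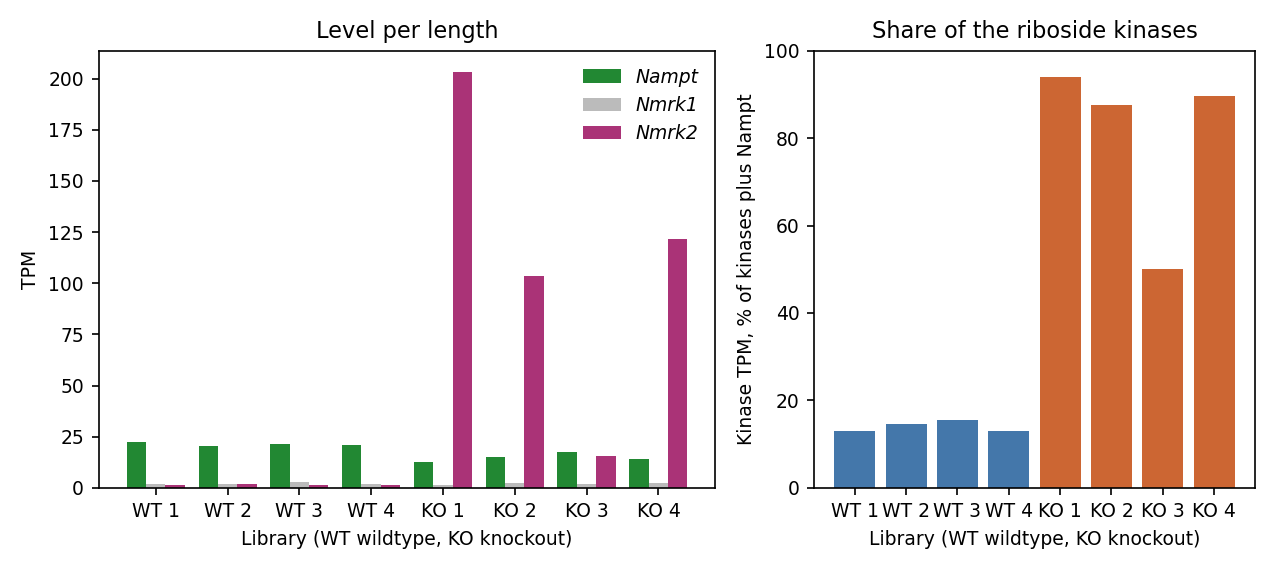
On the left, TPM of Nampt, Nmrk1 and Nmrk2 in each of the 8 hearts, and on the right, TPM of the riboside kinases as a percent of kinases plus Nampt. The share was 13% to 15.6% in the wildtype (blue) and 50.1% to 94.1% in the knockout (orange), with replicate 3 lowest.

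The adenylyltransferase genes, which act after both routes, did not follow Nmrk2. Nmnat1 (ENSMUSG00000028992.13, chr4:149467572-149485202, minus strand), encoding the nuclear enzyme, had 350.7, 375, 392.2 and 360.2 normalised counts in the wildtype and 335.7, 217.5, 256.3 and 264.2 in the knockout. Every knockout heart lay below every wildtype heart, replicate 1 only just, and the log2 fold change was -0.46 (SE 0.151). Nmnat3 (ENSMUSG00000032456.13, chr9:98287435-98420438, plus strand), assigned to mitochondria, had 220.9 to 291.2 in the wildtype and 188.5 to 310.5 in the knockout. Its groups overlapped at both ends, with a log2 fold change of -0.15 (SE 0.188).

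Nadsyn1 (ENSMUSG00000031090.14, chr7:143795584-143822849, minus strand) encodes the synthetase that completes NAD from nicotinate or tryptophan. It had 94.95, 63.4, 74.45 and 61.99 normalised counts in the wildtype and 96.89, 99.96, 79.87 and 95.98 in the knockout. The groups overlapped through wildtype replicate 1, and the log2 fold change was 0.35 (SE 0.211), or 0.61 when counts were not adjusted for transcript length. The mean length of the Nadsyn1 transcripts that RSEM estimated was 1371 to 1672 bases in the wildtype and 1661 to 1966 in the knockout. The mean count and the mean length were thus both higher in the knockout, and at 64 to 101 reads a library the estimate of length rests on few reads.

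Of the genes whose products consume or divert NAD and nicotinamide, Cd38 (ENSMUSG00000029084.5, chr5:43868553-43912375, plus strand), the main NAD-cleaving ectoenzyme, had 213.5, 260.2, 260.4 and 211.2 normalised counts in the wildtype. In knockout replicates 1 to 4 it had 350.4, 356.6, 236.4 and 305.5. 3 knockout hearts lay above all wildtype hearts and replicate 3 lay among them. The log2 fold change was 0.40 (SE 0.17), or 0.51 without replicate 3. CD38 is known from immune and endothelial cells. The macrophage marker sum was lowest in replicate 3 among the knockouts, at 3669, and was 4029 in replicate 1, which had 350.4 Cd38 counts. Its marker Adgre1 had 81.13 counts in replicate 3 and 347.5 in replicate 1, against 194.8 to 282.5 in the wildtype. Csf1r, Cd68, C1qa and C1qb were also lower in replicate 3 than in replicate 1, while Cd163 and Mrc1 were higher. Endothelial markers gave 0 of 6 called with all hearts and 2 higher without replicate 3. Their sum was 10527 in replicate 3, 17140 in replicate 1 and at least 13333 in the other knockouts, against 14588 to 15415 in the wildtype. The lymphocyte sum was 8.653 in replicate 3 and 30.75 to 67.69 in the other knockouts, against 19.1 to 49.7 in the wildtype. The part of these cells in the result was not tested.

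Nnmt (ENSMUSG00000032271.13, chr9:48591877-48605153, minus strand), which encodes the methyltransferase that removes nicotinamide, was the least abundant of the 10 genes. It had 24.73, 23.46, 25.35 and 20.82 normalised counts in the wildtype and 30.36, 54.31, 7.818 and 46.61 in the knockout. Replicates 1, 2 and 4 lay above the wildtype hearts and replicate 3 below them, so the log2 fold change of 0.56 (SE 0.485) became 0.89 without that heart. NNMT is known from fibroblasts and adipose tissue. The fibroblast marker sum had its lowest knockout value in the same heart, 19171, against 18172 to 18946 in the wildtype. The single markers were split there. Col3a1 (3645 against 5056 to 5756) and Lum (250.1 against 730.7 to 896.3) lay below the wildtype hearts. Col1a2, Dcn and Postn lay above them, and Col1a1 and Pdgfra lay within their range. The 5 adipocyte markers were also lowest there, at 5.317 against 26.21 to 101.2 in the other knockouts and 38.56 to 107.9 in the wildtype. The part of these cells was not tested.

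Sirt3 (ENSMUSG00000025486.17, chr7:140863666-140882309, minus strand), encoding the main deacetylase of mitochondria, which uses NAD, had 455 to 495 normalised counts in the wildtype and 422.2 to 512.9 in the knockout. The groups overlapped and the log2 fold change was -0.07 (SE 0.11). The mean length of its transcripts was 1277 to 1288 bases in the wildtype and 1160 to 1264 in the knockout, without overlap. Ric8a and Psmd13 overlap its ends on the opposite strand, sharing 418 and 342 exonic bases. Both were higher in the knockout, Ric8a by 0.95 and Psmd13 by 0.82 on the log2 scale (DESeq2, adjusted p = 1.02e-08 and 3.2e-05), and their part in the lengths was not tested.

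Nnt (ENSMUSG00000025453.16, chr13:119335448-119408997, minus strand) encodes the transhydrogenase of the inner mitochondrial membrane, which makes NADPH from NADH. The related strain C57BL/6J lacks a working Nnt, but these C57BL/6N hearts expressed it strongly. It had 15200, 14758, 12245 and 13302 normalised counts in the wildtype and 10648, 8463, 13335 and 9331 in the knockout. 3 knockout hearts lay below every wildtype heart and replicate 3 lay within their range. The log2 fold change was -0.41 (SE 0.153), or -0.55 without it.

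By the adjusted p of DESeq2, 1 of the 10 genes was called higher and 3 lower, where 18.2% and 15.5% of the 19959 genes tested were called so. Together this is 4 of 10 beside 33.7% of all genes, and since the genes were chosen with this contrast known nothing is read from it. Groups did not overlap for 2 of the 10, Nmrk2 and Nmnat1, beside 33.0% of all genes. The median log2 fold change over the 10 was 0.00, against 0.005 over all genes tested. Without knockout replicate 3 there were 3 called higher and 3 lower, beside 36.6% of 19200 genes. Without wildtype replicate 1, knockout replicate 2 or knockout replicate 4 there was 1 called higher and 1 lower. Calls over all genes fell too, from 6728 to 5556, 5869 and 5833 in these fits.

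The directions of the small differences depended on how the libraries were put on one scale. Scaling by total counts moved the median gene by -0.296 on the log2 scale, and total counts without mitochondrial ribosomal RNA moved it by 0.425. Under the latter the log2 fold changes were 0.04 for Nampt, -0.04 for Nmnat1 and 0.0048 for Nnt. Relative to the median gene they were nearly fixed, at -0.40 for Nampt, -0.48 for Nmnat1 and -0.43 for Nnt with the size factors used, and at -0.41, -0.48 and -0.44 under that scaling. With it, 5 of the 10 genes were called higher and none lower, and with total counts 1 higher and 5 lower. All genes shifted likewise, with 7950 called higher and 1111 lower, and 1924 higher and 5912 lower. Nmrk2 was 6.15 and 6.89 under the same scalings.

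In levels per length, the order of the median TPM in the wildtype was Nnt (120), Nampt (21.3), Sirt3 (12.5), Nmnat1 (6.29), Nmnat3 (3.98), Cd38 (2.28), Nmrk1 (1.97), Nmrk2 (1.39), Nadsyn1 (1.24) and Nnmt (0.795). The neighbours Cd38 and Nmrk1 overlapped, as did Nmrk2 and Nadsyn1, and the other neighbours did not. In the knockout Nmrk2 stood first with a median of 113 TPM, in libraries of 15.55 to 203.4, and overlapped Nnt (80.1), which was followed by Nampt (14.6) and Sirt3 (10.6) without overlap. Below these, Nmnat1 (4.08), Nmnat3 (3.04), Cd38 (2.90), Nmrk1 (2.10), Nadsyn1 (1.60) and Nnmt (1.18) each overlapped the next. Nmrk2 thus went from eighth to first while the order of the other 9 was the same in both groups.

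The genes whose profile over the 8 libraries was nearest to that of Nmrk2 were Phgdh, Slc7a3, Gdf15, Mthfd2 and Trib3. The distance was the root mean square difference of log2(normalised count + 1), each gene centred on its wildtype mean, among 10446 genes with at least 100 counts on average. It was 1.04 for Phgdh, an enzyme of serine synthesis, and 1.09 for the pseudokinase Trib3. It was 1.06 for the amino acid transporter Slc7a3, the secreted factor Gdf15 and the mitochondrial folate enzyme Mthfd2. All these genes had at most 53.52 counts in every wildtype heart, so they passed the filter of 100 only through the knockout. Because each gene was centred on its wildtype mean, the distance mostly compared the size of the knockout difference. Their log2 fold changes were 5.62 to 7.12, beside 6.44 for Nmrk2, a contrast already known when Nmrk2 was listed. Whether they vary with Nmrk2 from heart to heart was not tested. Knockout replicate 3 was also the lowest knockout for Gdf15, whose knockout hearts followed the same order as those of Nmrk2, but the drop was smaller. Phgdh had 1354, 1209, 1300 and 1179 normalised counts in the knockout, and Gdf15 had 2610, 1377, 1123 and 1704. The highest knockout library was 12.6 times the lowest for Nmrk2, against 1.15 for Phgdh, 1.46 for Slc7a3, 2.33 for Gdf15, 1.33 for Mthfd2 and 1.2 for Trib3. In the wildtype that ratio was 1.38 for Nmrk2, against 2.2 for Phgdh, 6.1 for Slc7a3, 1.79 for Gdf15, 1.54 for Mthfd2 and 3.28 for Trib3, at lower counts.

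**Figure D3:**
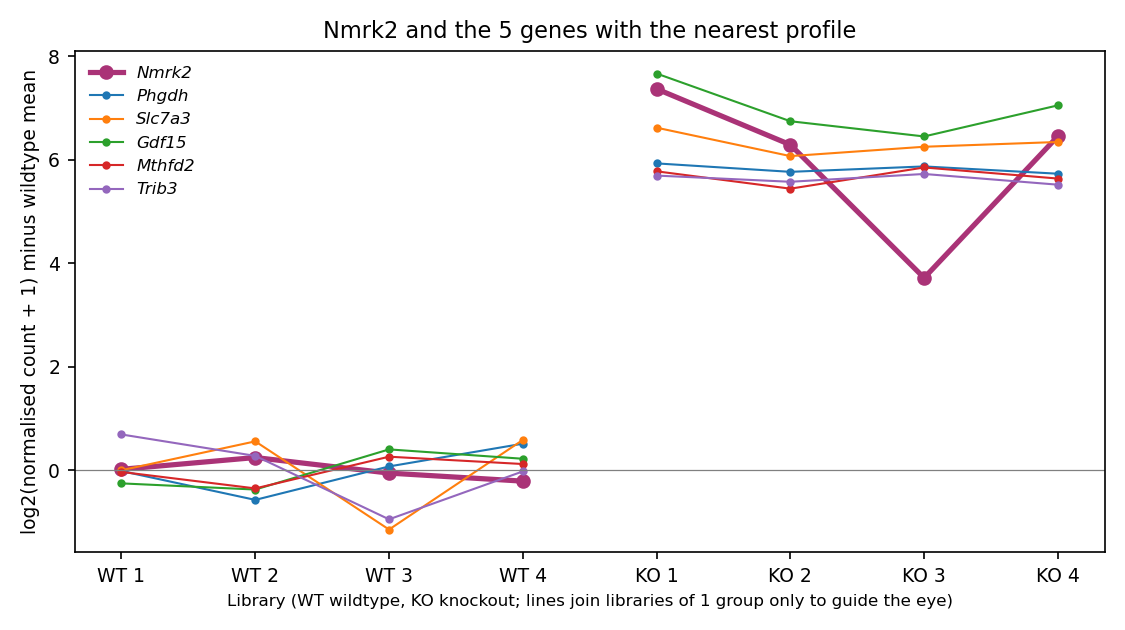
log2(normalised count + 1) minus the wildtype mean, for Nmrk2 (thick line) and the 5 genes nearest to it, in 4 wildtype and 4 knockout hearts. The thick line drops at knockout replicate 3, where Nmrk2 had 1128 counts. Gdf15 was also lowest there among the knockouts, at 1123, with a smaller drop, and the other 4 genes were not.

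The remaining genes of NAD metabolism were taken from a list of 57, of which 56 were found and 49 had an adjusted p. In the knockout 8 were called higher and 12 lower, which is 40.8% beside 33.7% of all genes tested, with a median log2 fold change of -0.16. With total counts 4 were higher and 25 lower, and with total counts without mitochondrial ribosomal RNA 16 were higher and 3 lower. The calls over all genes moved the same way under these scalings, as given above. Single genes are given with the size factors used, and without mitochondrial ribosomal RNA in the totals the calls of Naprt, Slc29a1, Nadk2, Nudt12, Parp1 (0.01), Parp9, Parp10, Parp14 and Art1 were lost. With total counts those of Naxd, Enpp1, Parp8 and Tnks were lost.

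Upstream of NAD, Naprt, the enzyme that starts the nicotinate route, fell from 135.1 ± 7.8 to 79.76 ± 18.9 normalised counts (SD, n = 4), a log2 fold change of -0.76 (SE 0.203, DESeq2, adjusted p = 0.000995). In the tryptophan route, 4 of 9 genes had an adjusted p and 1 was called. This was Afmid, kynurenine formamidase, which fell by 1.10 on the log2 scale (SE 0.262, DESeq2, adjusted p = 0.000168). Qprt, which joins that route to NAD, had at most 8 reads in any library, and its log2 fold change of 1.04 did not pass (DESeq2, adjusted p = 0.485). It was 0.71 without wildtype replicate 2 and 1.75 without wildtype replicate 3. Nmnat2, the neuronal adenylyltransferase, had at most 13 reads in any library and did not pass either (log2 fold change 0.47, DESeq2, adjusted p = 0.777). It was 0.95 (DESeq2, adjusted p = 0.473) without knockout replicate 3, which had 0.5704 counts against 12.61 to 13.92 in the other knockouts. Other libraries moved it too, to 0.06 without wildtype replicate 1 and to 1.35 without wildtype replicate 2.

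Among the transporters 1 of 4 tested was called. Slc29a1, an equilibrative nucleoside transporter, fell from 1004 ± 34.1 to 631.5 ± 110 normalised counts (SD, n = 4), a log2 fold change of -0.67 (SE 0.138, DESeq2, adjusted p = 1.13e-05). Slc25a51, the carrier that brings NAD into mitochondria, did not pass (log2 fold change -0.29, DESeq2, adjusted p = 0.0984), but did without knockout replicate 3 (-0.43, adjusted p = 4.03e-05). It had 1247 counts in that heart and 843.5 to 921.8 in the other knockouts, against 1115 to 1279 in the wildtype.

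The NAD kinases and the repair enzymes of damaged NADH and NADPH gave 3 calls of 4. Naxe, the epimerase of the repair pair, rose by 0.58 (SE 0.12, DESeq2, adjusted p = 1.53e-05) and its partner Naxd by 0.33 on the log2 scale (SE 0.114, adjusted p = 0.0134), though the call of Naxd was lost with the replicate block (0.0831) and without wildtype replicate 1 (0.0581) or 4 (0.0692). Nadk2, the mitochondrial NAD kinase, fell by 0.43 (SE 0.136, DESeq2, adjusted p = 0.00621). The cytosolic kinase Nadk did not pass (log2 fold change 0.17, DESeq2, adjusted p = 0.288).

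The nucleotidases and phosphatases that break down NAD, its mononucleotide and riboside, or related nucleotides held 4 calls among 6. Nt5c1a, the cytosolic nucleotidase of muscle, showed the largest change of all 20 called genes. It had 254.5 to 345.8 normalised counts in the wildtype and 70.27 to 130.8 in the knockout, without overlap, and a log2 fold change of -1.71 (SE 0.21, DESeq2, adjusted p = 1.05e-14). Nt5e, the nucleotidase of the cell surface, moved the other way, from 416.5 to 655.1 counts in the wildtype to 742.4 to 1203 in the knockout (log2 fold change 1.06, SE 0.196, DESeq2, adjusted p = 8.1e-07). Enpp1, a pyrophosphatase of the cell surface, was called higher (log2 fold change 0.56, DESeq2, adjusted p = 0.0435), but the call was lost in 11 of 15 alternatives, whose adjusted p ran from 0.000125 without knockout replicate 3 to 0.404 with total counts. Nudt12, an NADH hydrolase, fell by 0.59 (DESeq2, adjusted p = 0.0119), a call also lost without wildtype replicate 1 (0.0658), wildtype replicate 2 (0.053) or knockout replicate 2 (0.0568). Nt5c2 did not pass (log2 fold change 0.29, DESeq2, adjusted p = 0.414), and its change was -0.07 without knockout replicate 3. That heart had 1249 counts of Nt5c2, against 476.3 to 697.5 in the other knockouts.

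Of the other sirtuins, which spend NAD to remove acyl groups from proteins, 1 of 6 was called. Sirt2, the mostly cytosolic deacetylase, rose from 807.7 ± 41.9 to 1351 ± 195 normalised counts (SD, n = 4), a log2 fold change of 0.74 (SE 0.123, DESeq2, adjusted p = 2.64e-08). It was 0.63 without knockout replicate 3. The other 5 had log2 fold changes from -0.40 for Sirt4 to 0.19 for Sirt7. Sirt1 had 392.1 counts in knockout replicate 3 and 201.1 to 281 in the other knockouts, and its -0.15 was -0.37 without that heart (DESeq2, adjusted p = 0.0705).

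The ADP-ribosyltransferase family, whose active members transfer the ADP-ribose of NAD to proteins, was the largest group, with 3 higher and 6 lower of 19. This is 47.4% beside 33.7% of all genes, and not every listed member is known to be active. Parp4, the subunit of vault particles, was called higher with a log2 fold change of 1.24 (SE 0.316, DESeq2, adjusted p = 0.000495). Its 2134 counts in knockout replicate 3 stood above 662.8 to 886.8 in the other knockouts, and without that heart the change was 0.72. Parp9, Parp10 and Parp14, known as interferon-induced genes, fell by 0.65, 0.68 and 0.71 (DESeq2, adjusted p = 0.00951, 0.0101 and 0.0097). Each of these had its lowest count in knockout replicate 3, and without that heart they fell by 0.48, 0.51 and 0.52. Without wildtype replicate 3 the calls of Parp9 and Parp10 were lost (DESeq2, adjusted p = 0.0517 and 0.051). Art3 fell by 1.01 (SE 0.248, DESeq2, adjusted p = 0.000325), with 3201 counts in knockout replicate 3 against 1320 to 1749 in the other knockouts, and by 1.37 without that heart. Art5 did not pass (log2 fold change -0.83, DESeq2, adjusted p = 0.125), but fell by 1.53 without the same heart (DESeq2, adjusted p = 1.36e-06). That p-value rests on leaving out the knockout heart that lay within the wildtype range, at 193.1 counts against 114.5 to 216.9. Art1, a membrane-anchored enzyme of muscle, fell by 0.58 (SE 0.102, DESeq2, adjusted p = 2.01e-07). Parp1, the main sensor of broken DNA, fell by 0.42 (DESeq2, adjusted p = 0.00534), while Tnks rose by 0.37 (DESeq2, adjusted p = 0.00572). Parp8 was called higher (log2 fold change 0.29, DESeq2, adjusted p = 0.0442), but the call was lost in 10 of 15 alternatives, edgeR among them, with adjusted p from 1.18e-07 to 0.998. The 2 remaining glycohydrolases, Bst1 and Sarm1, gave no call (DESeq2, adjusted p = 0.0933 for Bst1). Aox1 and Cyp2e1, listed for the oxidation of methylated nicotinamide and of nicotinamide, gave none either (DESeq2, adjusted p = 0.0996 for Cyp2e1). Aox1 had 1246 counts in knockout replicate 3 and 543 to 841.4 in the other knockouts, and its log2 fold change of 0.03 was -0.22 without that heart (DESeq2, adjusted p = 0.26).

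**Figure D4:**
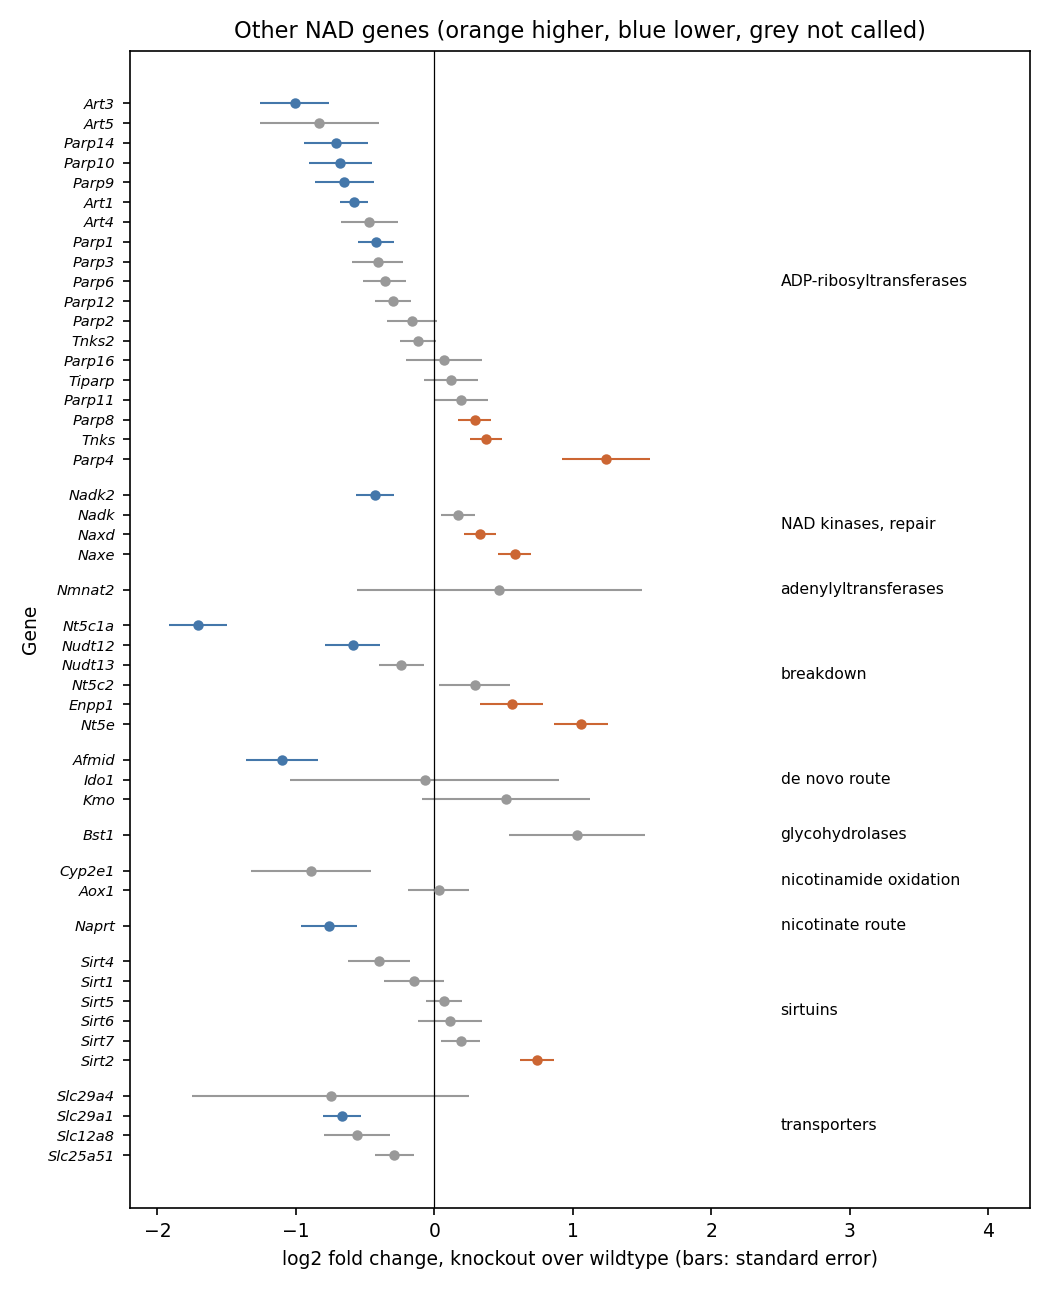
log2 fold changes, knockout over wildtype, with standard errors for 47 of the 49 other NAD genes tested, those with at least 10 reads in a library, grouped by role. Called genes are orange where higher (8) and blue where lower (12), and grey genes (27) did not pass, with Nt5c1a at the low end (-1.71) and Parp4 at the high end (1.24).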

How the data were processed

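RNA-Seq data of 8 mouse hearts were used, 4 libraries in each of 2 groups named by their genotype labels. The authors depleted ribosomal RNA, aligned reads to mm10 with GENCODE M13 transcripts by Bowtie2 and estimated expression with RSEM 1.2.31, counting by strand. The deposited tables give, for each gene, RSEM's expected counts, TPM (length-corrected abundances scaled by the authors) and transcript lengths. Expected counts were rounded to whole numbers. Differences were tested in DESeq2 1.42.0 (R 4.3.3) in 1 fit of the 8 hearts by genotype. Median-of-ratios size factors were used, effective lengths entered as an offset, and p-values had Benjamini-Hochberg adjustment over all genes, at a threshold of 0.05. TPM served for levels between genes of a library. Normalised counts are counts after these factors and lengths.

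Genes and promoters were placed on GRCm38 with GENCODE M21, where 50339 of 50563 Ensembl identifiers matched. 8 columns of a table of the whole series matched no sample label and were not used, nor were the authors' fold changes and p-values. The counts of calls and the fold changes of the members and of the other NAD genes named by rule were recomputed with the quasi-likelihood test of edgeR 4.0.16 (TMM), without the length offset, on genes reaching 10 counts in 4 libraries, with nuclear-gene size factors, with 2 total-count scalings, with a replicate block and without each library in turn, where a fit gave a value. The kinase share was recomputed in other units, with Nmrk2 alone, within replicate numbers and without each library. Marker and Lrpprc calls without knockout replicate 3 were added after seeing the data. P-values of other genes without that heart were likewise printed after its values were seen, mainly for genes it moved, and serve as description. The fits were tested on simulated data. The members and lists were chosen with earlier results of these data known. Named are all 10 members, Lrpprc, 6 fixed other NAD genes, the 15 called with the largest change (Naprt is in both), and the 5 nearest to Nmrk2, and other genes were named after their values were seen. Replicate libraries differed by more than sampling noise (chi-square per degree of freedom 4.4 to 48.3). Each group was 4 mice, and p-values measure the spread between these libraries. Depth limits genes with few reads, such as Nnmt.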

Additional observations from a re-analysis of the deposited data

Results flagged for a closer look

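In groups of 4 libraries, 7 of 64 groups examined had 1 library far from the other 3, where chance alone gives about 3.2 (1 in 20). In knockout replicate 3 the kinase share of kinase and Nampt TPM was 50.14%, against 87.58% to 94.11% in the other knockouts. The same library had 2134 Parp4 counts against 662.8 to 886.8, 1642 Sirt2 counts against 1236 to 1291, and 0.5704 Nmnat2 counts against 12.61 to 13.92. Knockout replicate 2 had 504.3 Lrpprc counts against 597.4 to 605.4 and 1274 Art1 counts against 1067 to 1097. Wildtype replicate 3 had 655.1 Nt5e counts against 416.5 to 442.5. Nmrk2 itself was not among these, since its knockout libraries were spread on both sides.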

How the results depend on the processing

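Of the 10 genes, the number called ranged from 2 to 6 when 1 library was left out, with 2 without wildtype replicate 1, knockout replicate 2 or knockout replicate 4, and 6 without knockout replicate 3. Other settings gave 4 to 6. All genes called ranged from 5549 to 7022, other NAD genes from 17 to 23 and the kinase share difference from 61.8 to 76.4 percentage points on leaving out a library. The share difference was 61.3 with normalised counts and 73.4 with Nmrk2 alone. It was 66.3 with recomputed TPM, which rest on the same counts and lengths and so could hardly differ. With total counts without mitochondrial ribosomal RNA the log2 fold change of Nampt was 0.04, of Nnt 0.0048 and of Slc25a51 0.13, all turned in sign, and with total counts that of Nadk was -0.12. These scalings move every gene alike. Of 296 values of the named other genes under alternatives, 266 kept direction and call, 24 lost the call, 4 gained it and 2 turned. Replicate numbers did not pair the libraries, since the correlations of deviations were -0.014, -0.044, -0.074 and 0.072 for numbers 1 to 4, and only number 4 correlated best with itself. With the replicate block 5525 genes, 4 of the 10 and 18 other NAD genes were called, and Nmrk2 had 6.04. The share difference within replicate numbers was 66.3 by arithmetic, since each number holds 1 library of each group. Genes with few reads, such as Nnmt, Qprt and Nmnat2, are limited by depth.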
